A study of Mus musculus with 12 samples.

Results

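The genes described here are 34 named genes of the hypoxia response and of glycolysis, named as a list by pathway, with earlier results of these data known. Of them, 31 had at least 1 probe set annotated with that gene symbol alone, 65 probe sets in all, out of 18194 such genes on the array. Gpi1, Eno1 and Bnip3l had none and were dropped. Gapdh was present only on 3 Affymetrix control probe sets and Car9 lay below the signal filter, so both are described without a test. The other 29 were tested within a fit of 11105 genes.

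The samples were 12 Affymetrix mouse 430 2.0 arrays of epiblast stem cells (EpiSC), pluripotent cells that resemble the epiblast after implantation. There were 4 groups of 3 biological replicates. The diploid groups, EpiSC-1 and EpiSC-2, were of strain B6D2F1, and the haploid groups, also named EpiSC-1 and EpiSC-2, of strain 129Sv. All were grown at 37 °C and 5% CO2 in N2B27 with added Activin A and bFGF, and no group was placed under low oxygen by its label. The oxygen level of the cultures, and the share of cells that still held a single chromosome set at harvest, are not given in the sources used here. EpiSC-1 and EpiSC-2 of a ploidy were read as separate cell lines, so a p-value between lines measures the spread among replicates of those lines and not among lines. Strain and ploidy divide the arrays alike and cannot be told apart.

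When oxygen is low, the transcription factor HIF, a dimer of an oxygen-sensitive alpha subunit and the stable subunit ARNT, accumulates and binds short hypoxia response elements near its target genes. With oxygen present, prolyl hydroxylases of the EGLN family mark the alpha subunit for destruction through VHL. HIF targets include most enzymes of glycolysis, which turns glucose into pyruvate and lactate, and genes for vessel growth, collagen hydroxylation, mitophagy and the hydroxylases themselves. Primed pluripotent cells such as EpiSC are known for a strongly glycolytic metabolism.

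Array medians lay between 63.6 and 76.5 signal units. Log2 signals of replicates correlated at 0.989 to 0.992 over the tested genes. The standard deviation of a member between replicates of a line had a median of 0.066 on the log2 scale, from 0.003 to 0.397. Of 12 epiblast markers, all 12 were at or above the filter in each line, with summed signals from 62745.4 to 66588.9 in diploid EpiSC-1, 54718 to 56194.5 in diploid EpiSC-2, 27527.1 to 28108.3 in haploid EpiSC-1 and 39474.1 to 41073.9 in haploid EpiSC-2. Of 20 fibroblast feeder markers, 8, 14, 19 and 20 reached the filter in those lines, in the same order. Their sums were 2108 to 2245.2, 7240.6 to 7355.8, 37592.3 to 38082.6 and 40433.4 to 41331.5. The defining fibroblast markers Col1a1 and Col3a1 were under the filter in diploid EpiSC-1, and Dcn, Lum and Postn were under it in both diploid lines. Endothelial sums (5 markers, at most 1 at the filter) stayed between 76.3 and 197.2. Blood sums (4 of 5 markers on the array, at most 1 at the filter) lay between 54.8 and 380.1. In such bulk RNA, fewer cells of a type and less RNA per cell cannot be told apart.

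The haploid lines differed from each other across most of the list. In haploid EpiSC-2, 23 of the 29 tested members were lower than in haploid EpiSC-1 and 2 were higher (Benjamini-Hochberg adjusted p under 0.05 in limma over all 11105 genes), while 31% of all tested genes were lower and 25.7% higher. Of the 23, 12 were lower by 2-fold or more, against 4.71% of all genes. The median difference of the members was -0.71 on the log2 scale, against -0.05 for all genes. Eno2, P4ha2, Ndrg1, Egln3, Aldoc and Bnip3 led, and Pgk1, Pkm, Adm and Aldoa were not called. In haploid EpiSC-1 a member had the highest mean of the 4 lines in 18 of 29 cases, where this line was highest for 32.7% of all genes. Haploid EpiSC-2 was the lowest line for 11 of the 29 and for 22% of all genes.

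**Figure D1:**
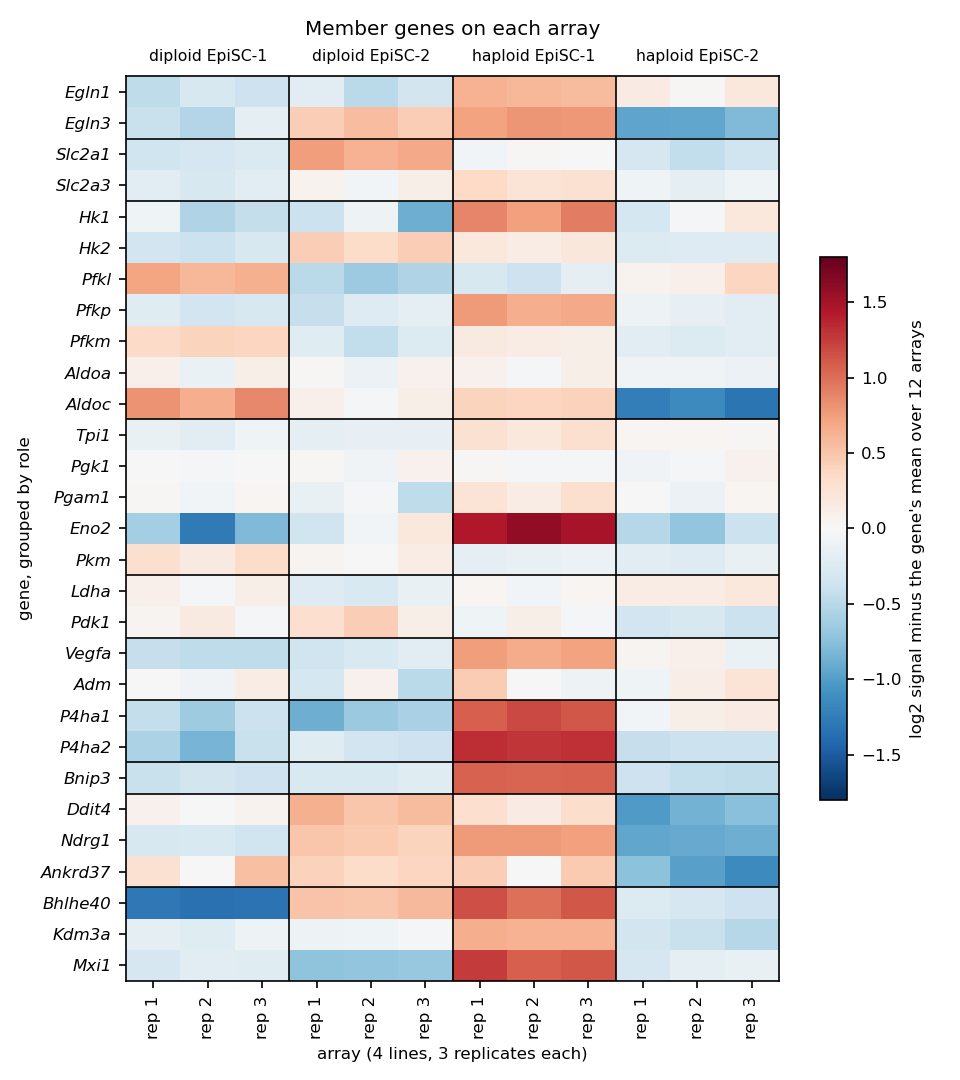
Log2 MAS5 signal of the 29 tested members on the 12 arrays, each gene minus its own mean over the arrays (colour scale in log2 units), with genes in rows grouped by role and replicates of the 4 lines in columns. The haploid EpiSC-1 columns hold the highest line mean for 18 members, and the haploid EpiSC-2 columns the lowest for 11.

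The tested members comprised 15 of glucose uptake, glycolysis and lactate and 14 others, among them the hydroxylases, Bnip3 and Ndrg1. Of the 14, 13 were lower in haploid EpiSC-2 and none higher (0 also at an unadjusted p under 0.05), 10 of them by 2-fold or more, with a median of -1.19. Of the 15, 10 were lower and 2 higher, with 2 at 2-fold or more and a median of -0.35. The difference between these groups of members was not tested. Array quality also differed a little: haploid EpiSC-1 arrays had medians of 73.1 to 76.5 and haploid EpiSC-2 arrays 65.7 to 68.6, and the actin 3′ to 5′ signal ratio was 1.34 to 1.38 and 1.39 to 1.42. The part of these values, and of the marker sums above, in the result was not tested. Of the 12 epiblast markers, 10 (83.3%, against 25.7% of all genes) were higher and 2 (16.7%, against 31%) lower in haploid EpiSC-2. Of the 12, 5 were higher by 2-fold or more, where 237 of all 11105 genes were, and their median was 0.66. The 18 tested feeder markers had a median of -0.21 between the haploid lines, with 3 (16.7%) higher and 6 (33.3%) lower.

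**Figure D2:**
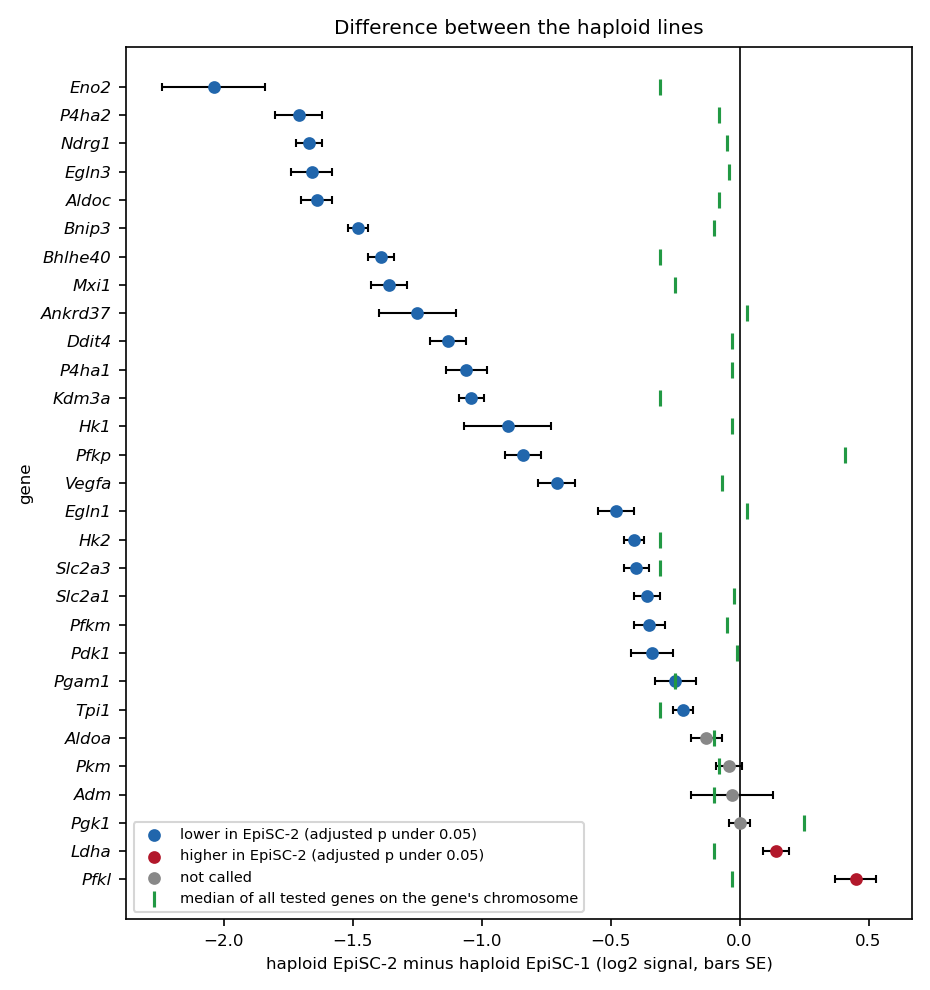
Difference of each tested member between the haploid lines (haploid EpiSC-2 minus haploid EpiSC-1, log2 signal, x axis) with its standard error from limma, 3 arrays per line. Blue points were lower and red points higher at an adjusted p under 0.05, and green ticks mark the median of all tested genes on the same chromosome. Points run from -2.04 for Eno2 to 0.45 for Pfkl, with 23 in blue and 2 in red.

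Upstream sequences of members that moved together are shown with the core letters of the hypoxia response element, for 5 members with at least 2-fold lower signals in haploid EpiSC-2, and for Pgk1 and Ldha, textbook HIF targets that were not lower. The 5 are the 4 with the most matches among the 10 such members that had an entry, and Eno2, which had the largest difference and no match, so they were chosen after their matches were seen. Each is the 250 bases before the RefSeq transcription start in GRCm38.p6, 5′ to 3′ on the gene's strand, and capitals mark ACGTG or GCGTG on either strand (CACGT and CACGC on the reverse), which overlap where CACGTG occurs.
Bnip3, chr7:138909507-138909756, minus strand: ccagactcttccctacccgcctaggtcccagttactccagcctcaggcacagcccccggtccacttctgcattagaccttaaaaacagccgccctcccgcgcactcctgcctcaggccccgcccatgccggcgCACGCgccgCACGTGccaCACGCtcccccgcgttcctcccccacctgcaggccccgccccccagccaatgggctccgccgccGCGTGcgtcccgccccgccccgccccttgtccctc
P4ha2, chr11:54100674-54100923, plus strand: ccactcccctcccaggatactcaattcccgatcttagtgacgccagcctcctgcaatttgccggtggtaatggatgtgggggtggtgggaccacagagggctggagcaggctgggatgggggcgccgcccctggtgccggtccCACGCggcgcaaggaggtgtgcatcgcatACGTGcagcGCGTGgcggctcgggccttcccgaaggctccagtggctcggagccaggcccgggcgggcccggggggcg
P4ha1, chr10:59323046-59323295, plus strand: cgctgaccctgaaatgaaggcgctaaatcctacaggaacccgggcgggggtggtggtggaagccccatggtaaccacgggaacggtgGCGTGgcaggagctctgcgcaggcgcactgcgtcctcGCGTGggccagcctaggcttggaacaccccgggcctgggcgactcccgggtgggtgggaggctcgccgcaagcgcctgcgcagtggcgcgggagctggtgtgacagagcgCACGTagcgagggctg
Ankrd37, chr8:45999851-46000100, minus strand: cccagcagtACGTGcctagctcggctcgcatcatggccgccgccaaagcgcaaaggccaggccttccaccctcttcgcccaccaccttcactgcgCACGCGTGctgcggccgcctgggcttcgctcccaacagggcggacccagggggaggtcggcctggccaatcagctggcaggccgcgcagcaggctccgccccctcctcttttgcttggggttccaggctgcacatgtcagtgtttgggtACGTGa
Eno2, chr6:124769674-124769923, minus strand: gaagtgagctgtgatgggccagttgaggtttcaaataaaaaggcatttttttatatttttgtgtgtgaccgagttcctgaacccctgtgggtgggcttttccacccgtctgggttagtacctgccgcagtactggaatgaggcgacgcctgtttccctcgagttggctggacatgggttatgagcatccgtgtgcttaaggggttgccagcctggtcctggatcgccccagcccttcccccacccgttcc
Pgk1, chrX:106186850-106187099, plus strand: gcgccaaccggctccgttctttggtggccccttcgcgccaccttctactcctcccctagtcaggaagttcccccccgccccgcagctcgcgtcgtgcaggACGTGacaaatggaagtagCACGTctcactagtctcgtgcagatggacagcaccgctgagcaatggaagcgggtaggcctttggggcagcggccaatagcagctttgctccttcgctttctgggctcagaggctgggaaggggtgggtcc
Ldha, chr7:46845554-46845803, plus strand: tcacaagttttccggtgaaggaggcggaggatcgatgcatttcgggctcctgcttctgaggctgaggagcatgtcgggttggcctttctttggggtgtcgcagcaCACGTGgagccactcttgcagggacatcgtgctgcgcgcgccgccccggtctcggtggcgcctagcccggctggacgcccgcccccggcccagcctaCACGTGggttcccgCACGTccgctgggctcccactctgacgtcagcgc

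Bnip3 held 5 such matches, Ankrd37 4, P4ha2 and P4ha1 3 each, Eno2 0, Pgk1 2 and Ldha 5 in the one shown of its 2 promoters, with 1 in the other. Of the other members lower by 2-fold or more with an entry, Ddit4 had 2 matches, and Egln3, Aldoc, Mxi1 and Kdm3a had at most 1 in a promoter. Among members lower by smaller amounts, Pgam1 and Pfkp had 3 each, as did 1 of the 2 promoters of Hk1. Of the 29 tested members, 26 had an entry in the promoter table, and 24 of these (92.3%) had at least 1 match in their 250 bases. Among all 27025 genes of the table the share was 41.5%. Counted by promoter, it was 73.2% of 41 member promoters and 38.6% of 32851. The member promoters had a median GC content of 60.4% and 13 CpG sites, against 52.4% and 6 for all, and the motif itself holds a CpG. The share with a match was 90% of the 10 members with an entry that were lower by 2-fold or more, and 93.8% of the other 16. A match is a run of letters and not a measured binding site.

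Egln3 and Egln1, the members that encode prolyl hydroxylases of the EGLN family, were lower in haploid EpiSC-2. Egln3, the prolyl hydroxylase induced by HIF in many cells (Entrez 112407, chromosome 12), had signals of 735.0, 671.3 and 866.8 in diploid EpiSC-1 and 1316.1, 1417.2 and 1317.4 in diploid EpiSC-2. It had 1602.0, 1673.3 and 1664.9 in haploid EpiSC-1 and 499.6, 507.4 and 560.0 in haploid EpiSC-2. All haploid EpiSC-1 arrays lay above every diploid array and all haploid EpiSC-2 arrays below. The haploid lines differed by -1.66 ± 0.08 (log2, SE, adjusted p = 7.6e-10 in limma), and the diploid lines by 0.84 ± 0.08 (adjusted p = 7.47e-07). A second probe set of Egln3 gave -2.53 between the haploid lines. Egln1, the main hydroxylase at normal oxygen (Entrez 112405, chromosome 8), had 821.3, 922.9 and 871.3 in diploid EpiSC-1 and 992.7, 810.5 and 898.1 in diploid EpiSC-2. Its signals were 1746.3, 1706.7 and 1681.9 in haploid EpiSC-1 and 1251.0, 1145.7 and 1293.9 in haploid EpiSC-2. Here both haploid lines lay above all diploid arrays, while haploid EpiSC-2 was lower than haploid EpiSC-1 (-0.48 ± 0.07, adjusted p = 7.18e-05).

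Neither glucose transporter was called between ploidies, and both were called between the 2 lines of each ploidy. Slc2a1, which encodes the transporter GLUT1 (Entrez 20525, chromosome 4), had 9743.1, 10139.0 and 10442.4 in diploid EpiSC-1 and 21194.3, 19434.1 and 20144.6 in diploid EpiSC-2. It had 12073.0, 12782.8 and 12482.2 in haploid EpiSC-1 and 10145.7, 9213.1 and 9811.7 in haploid EpiSC-2. Diploid EpiSC-2 stood above the 9 other arrays, by 1.0 ± 0.05 over diploid EpiSC-1 (adjusted p = 1.89e-10), and the haploid lines differed by -0.36 ± 0.05 (adjusted p = 1.16e-05). Slc2a3, which encodes GLUT3, had means of 13938.4, 16830.1, 20041.8 and 15143.6 in diploid lines EpiSC-1 and EpiSC-2 and then haploid lines EpiSC-1 and EpiSC-2, the order of lines kept below. Its haploid difference was -0.40 ± 0.05 on this probe set and between -1.84 and -0.40 over its 4 tested probe sets, all 4 called lower.

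In the upper steps of glycolysis, most members were lower in haploid EpiSC-2 and 1 was higher. Aldoc, the aldolase isozyme of brain (Entrez 11676, chromosome 11), had 3396.4, 3064.5 and 3521.0 in diploid EpiSC-1 and 2072.7, 1918.3 and 2078.3 in diploid EpiSC-2. It had 2551.1, 2544.7 and 2589.0 in haploid EpiSC-1 and 819.7, 877.3 and 778.9 in haploid EpiSC-2, which lay below all other arrays. The haploid difference was -1.64 ± 0.06 (adjusted p = 3.35e-11), and with the mean of all its probe sets it was -0.66 and not called (adjusted p = 0.176). Pfkl, the liver-type phosphofructokinase (Entrez 18641, chromosome 10), went the other way, with 982.2, 919.4 and 1069.8 in haploid EpiSC-1 and 1246.9, 1275.7 and 1562.7 in haploid EpiSC-2 (0.45 ± 0.08, adjusted p = 0.000356). With the mean of all its probe sets this difference was 0.18 and not called (adjusted p = 0.0785). Its diploid arrays read 1964.6, 1809.4 and 1861.6 in diploid EpiSC-1 and 855.6, 757.1 and 822.7 in diploid EpiSC-2, so the 4 lines did not overlap. The diploid lines differed by -1.21 ± 0.08 (adjusted p = 2.26e-08).

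The other phosphofructokinases and the hexokinases, which phosphorylate glucose, followed the direction of the list between the haploid lines. Pfkp, the platelet type, had means of 656.8, 664.4, 1297.4 and 722.9 (haploid difference -0.84 ± 0.07). Pfkm, the muscle type, had 1294.3, 811.0, 1096.6 and 863.2 (-0.35 ± 0.06). Hexokinase genes were lower too: Hk1 had 465.4, 439.6, 1057.0 and 570.9 (-0.90 ± 0.17), and Hk2 had 4051.7, 6799.2, 5774.5 and 4348.6 (-0.41 ± 0.04). Adjusted p-values of these 4 lay between 1.81e-07 for Pfkp and 0.000482 for Hk1. Aldoa, the ubiquitous aldolase, had 15308.0, 15018.5, 15575.5 and 14248.9 and was not called (-0.13 ± 0.06, adjusted p = 0.0854).

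In the lower steps, Eno2 stood out from enzymes that moved little. Eno2, the neuronal enolase (Entrez 13807, chromosome 6), had 85.6, 53.9 and 74.8 in diploid EpiSC-1 and 101.6, 126.2 and 148.2 in diploid EpiSC-2. It had 352.2, 393.0 and 363.2 in haploid EpiSC-1 and 91.5, 79.5 and 99.6 in haploid EpiSC-2. Only haploid EpiSC-1 was well away from the filter at 62.6, so the size of the haploid difference (-2.04 ± 0.20, adjusted p = 7.58e-07) rests on signals near the background in the other line. The glycolytic enzyme genes Tpi1 and Pgam1 were lower by smaller amounts (-0.22 ± 0.04 and -0.25 ± 0.08, adjusted p = 0.000188 and 0.0174). Pgk1, which makes ATP in glycolysis, had 19202.9, 19394.2, 19126.3 and 19158.7, and its haploid difference was 0.00 ± 0.04 (adjusted p = 0.985). Pkm, the pyruvate kinase gene, had 6920.1, 6033.5, 5229.5 and 5076.8 (-0.04 ± 0.05, adjusted p = 0.471). The control probe sets of Gapdh, the enzyme before Pgk1 in the pathway, gave 21074.6, 18957.5, 22611.9 and 20980.8 for the 5′ set and 17688.2, 17510.0, 19211.4 and 17864.5 for the 3′ set.

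At the branch from pyruvate, Ldha, the lactate dehydrogenase subunit favoured in glycolytic cells, was slightly higher in haploid EpiSC-2, with means of 16914.5, 14041.5, 16331.5 and 18011.6 (0.14 ± 0.05, adjusted p = 0.0174). Pdk1, a kinase that shuts pyruvate dehydrogenase, had 3229.7, 3778.6, 3096.7 and 2444.9 (-0.34 ± 0.08, adjusted p = 0.00144), and the mean of its probe sets gave 0.01. Slc2a3, Aldoa, Tpi1, Pgk1 and Ldha had all 4 line means above 10000, where array maxima were 31676.2 to 37926.6. Their haploid differences ran from -0.40 to 0.14, and those of the 24 other members from -2.04 to 0.45. Whether high signals are compressed on these arrays was not tested.

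Among secreted and surface proteins, Vegfa, the growth factor for vessels (Entrez 22339, chromosome 17), had 583.5, 569.3 and 567.3 in diploid EpiSC-1 and 607.3, 645.5 and 680.8 in diploid EpiSC-2. It had 1314.3, 1232.0 and 1291.3 in haploid EpiSC-1 and 802.5, 827.8 and 713.5 in haploid EpiSC-2, so that all 6 haploid arrays exceeded all 6 diploid ones. Between the haploid lines it differed by -0.71 ± 0.07 (adjusted p = 7.46e-07). Adm, the vasodilator adrenomedullin, had 308.4, 260.4, 335.7 and 325.3 with overlapping arrays (-0.03 ± 0.16, adjusted p = 0.884). Car9, a carbonic anhydrase and common hypoxia marker, had 41.7, 16.1 and 35.8 in diploid EpiSC-1 and 42.5, 27.3 and 5.52 in diploid EpiSC-2. It had 92.2, 122.7 and 138.7 in haploid EpiSC-1 and 68.1, 49.0 and 6.07 in haploid EpiSC-2, so only haploid EpiSC-1 lay wholly above the filter value.

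Genes of 2 alternative alpha subunits of collagen prolyl hydroxylase were lower in haploid EpiSC-2, and haploid EpiSC-1 held the highest arrays. P4ha2 (Entrez 18452, chromosome 11) had 379.0, 314.1 and 422.9 in diploid EpiSC-1 and 481.3, 441.3 and 431.5 in diploid EpiSC-2. It had 1410.2, 1364.2 and 1390.6 in haploid EpiSC-1 and 420.3, 429.0 and 427.6 in haploid EpiSC-2, the latter within the diploid range. The difference was -1.71 ± 0.09 (adjusted p = 2.37e-09). P4ha1 (Entrez 18451, chromosome 10) had 891.5, 771.7 and 914.0 in diploid EpiSC-1 and 649.1, 755.3 and 797.5 in diploid EpiSC-2. It had 2524.7, 2717.2 and 2604.7 in haploid EpiSC-1 and 1154.0, 1282.7 and 1329.6 in haploid EpiSC-2. Both haploid lines stood above every diploid array here, 2.09-fold apart from each other (-1.06 ± 0.08, adjusted p = 1.01e-07).

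Bnip3, a mitophagy receptor of the outer mitochondrial membrane (Entrez 12176, chromosome 7), was high in 1 line alone. Its signals were 4462.5, 4677.6 and 4545.9 in diploid EpiSC-1 and 4861.8, 4887.9 and 5098.8 in diploid EpiSC-2. They were 12281.4, 12239.7 and 12290.2 in haploid EpiSC-1 and 4578.6, 4348.1 and 4287.2 in haploid EpiSC-2. The haploid difference was -1.48 ± 0.04, a factor of 2.79 (adjusted p = 1.25e-12), while the diploid lines differed by 0.12 ± 0.04 (adjusted p = 0.0164).

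The stress and growth control members were lowest in haploid EpiSC-2. Ndrg1, a stress-responsive gene (Entrez 17988, chromosome 15), had 819.9, 830.6 and 784.4 in diploid EpiSC-1 and 1416.7, 1389.0 and 1327.3 in diploid EpiSC-2. It had 1705.8, 1711.7 and 1675.5 in haploid EpiSC-1 and 522.7, 534.1 and 544.6 in haploid EpiSC-2 (-1.67 ± 0.05, adjusted p = 9.68e-12). No 2 of the lines overlapped, and its 5 tested probe sets gave haploid differences of -1.48 or lower, down to -1.75. Ddit4, an inhibitor of mTOR signalling (Entrez 74747, chromosome 10), had 6049.7, 5680.4 and 5971.2 in diploid EpiSC-1 and 8904.7, 8059.7 and 8491.8 in diploid EpiSC-2. It had 7076.6, 6331.9 and 7127.9 in haploid EpiSC-1 and 2809.9, 3176.9 and 3403.6 in haploid EpiSC-2 (-1.13 ± 0.07, adjusted p = 4.42e-09). Haploid EpiSC-1 thus lay between the diploid lines and haploid EpiSC-2 below all. Ankrd37, an ankyrin-repeat protein gene (Entrez 654824, chromosome 8), had 409.6, 340.1 and 490.6 in diploid EpiSC-1 and 452.0, 424.1 and 440.0 in diploid EpiSC-2. It had 459.3, 335.9 and 467.0 in haploid EpiSC-1 and 202.5, 171.5 and 153.0 in haploid EpiSC-2 (-1.25 ± 0.15, adjusted p = 7.2e-06). The first 3 lines overlapped, and haploid EpiSC-2 lay below them.

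The transcription and chromatin members fell into the same order for the haploid lines. Bhlhe40, a repressor of the basic helix-loop-helix family (Entrez 20893, chromosome 6), had 720.3, 692.0 and 698.8 in diploid EpiSC-1 and 2502.4, 2486.3 and 2630.7 in diploid EpiSC-2. It had 3906.3, 3479.0 and 3806.5 in haploid EpiSC-1 and 1485.7, 1427.8 and 1361.1 in haploid EpiSC-2. Neither ploidy formed a block: the diploid lines differed by 1.85 ± 0.05 (adjusted p = 1.01e-12) and the haploid lines by -1.39 ± 0.05 (adjusted p = 6.06e-11). Kdm3a, a histone demethylase (Entrez 104263, chromosome 6), had 2030.6, 1979.7 and 2155.9 in diploid EpiSC-1 and 2144.3, 2183.2 and 2253.9 in diploid EpiSC-2. It had 3616.5, 3521.4 and 3528.3 in haploid EpiSC-1 and 1832.6, 1743.9 and 1612.2 in haploid EpiSC-2, on either side of the diploid arrays (-1.04 ± 0.05, adjusted p = 7.83e-10). Mxi1, an antagonist of MYC (Entrez 17859, chromosome 19), had 641.9, 692.0 and 676.2 in diploid EpiSC-1 and 477.3, 484.0 and 491.5 in diploid EpiSC-2. It had 1887.9, 1659.4 and 1720.3 in haploid EpiSC-1 and 642.6, 697.5 and 717.0 in haploid EpiSC-2 (-1.36 ± 0.07, adjusted p = 7.58e-10). Haploid EpiSC-2 overlapped diploid EpiSC-1 for this gene.

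**Figure D3:**
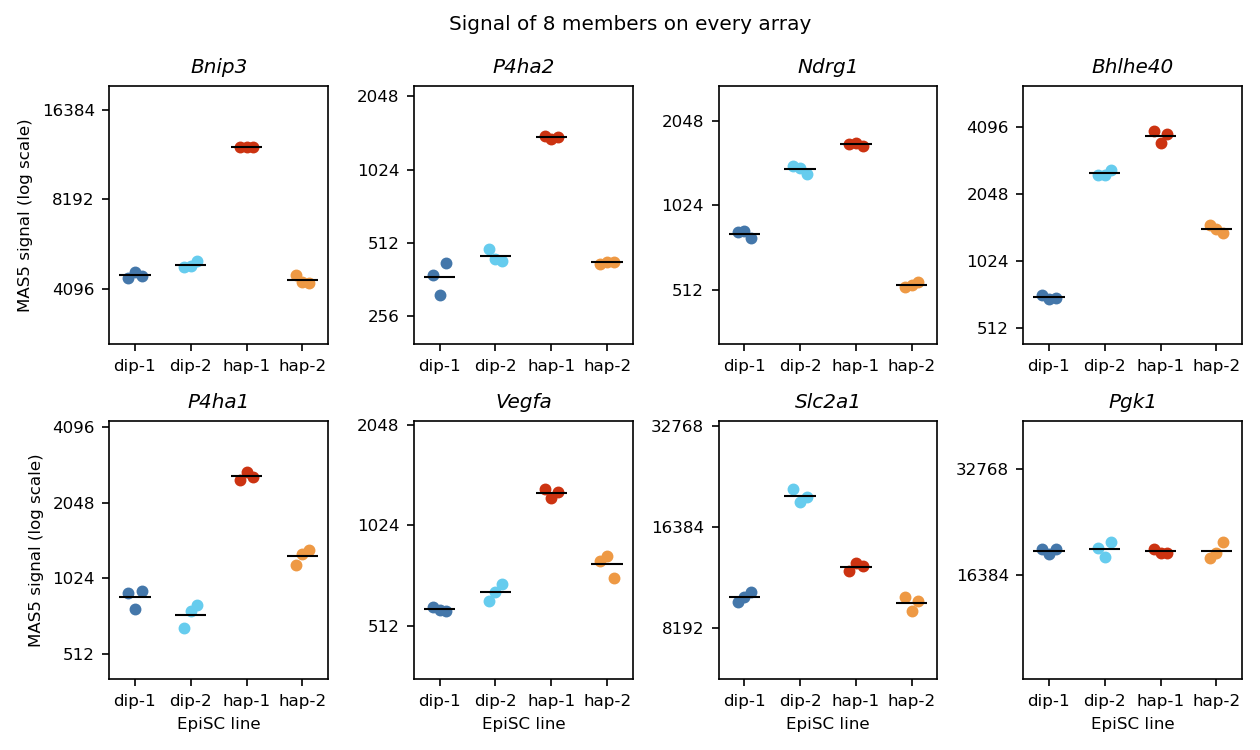
MAS5 signal (y axis, log scale) of 8 members on each of the 12 arrays, by EpiSC line (dip, diploid; hap, haploid), with points for replicates and a bar for the line mean. Bnip3 and P4ha2 are high in haploid EpiSC-1 alone, Slc2a1 is highest in diploid EpiSC-2, and Pgk1 has line means from 19126.3 to 19394.2.

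Some members lay on chromosomes whose tested genes were shifted as a whole between the haploid lines. All 6 tested members on chromosome 6 were lower in haploid EpiSC-2, where the median of all tested genes was -0.31, and the median was -0.25 on chromosome 19, 0.41 on chromosome 13 and 0.25 on chromosome X. Away from those 4 chromosomes, 14 of 19 members were lower, 8 of them by 2-fold or more, and 2 were higher, with a median of -0.71. For all tested genes there, 30.6% were lower and the median was -0.05. Against the median of its own chromosome a member lay lower in 23 of 29 cases, by 1 log2 unit or more in 12. The shares of all genes at these limits are not given here, so neither count is read as particular to the members. Pfkp was lower by 0.84 on a chromosome whose genes were shifted upward, and Tpi1 and Pgam1 were at or near the median of theirs.

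The comparison of ploidies asked which members differ between haploid and diploid EpiSC. With the 4 lines as a random block, 4 of the 29 members were higher in haploid cells and none lower, against 9.69% higher and 7.54% lower among all tested genes. At an unadjusted p under 0.05 in limma, 8 members were higher and 3 lower, and no other tool was run. The shares of all genes above are at an adjusted p. None is given here at the unadjusted one, so the unadjusted counts cannot be set against a share. The 4 were P4ha1 (1.19 ± 0.29, adjusted p = 0.00864), Egln1 (0.71 ± 0.21, adjusted p = 0.0266), Vegfa (0.72 ± 0.22, adjusted p = 0.0346) and Mxi1 (0.94 ± 0.31, adjusted p = 0.0431), each over 6 arrays from 2 lines of each ploidy. For P4ha1, Egln1 and Vegfa all haploid arrays exceeded all diploid arrays, and for Mxi1 the arrays overlapped. Each of the 4 had 2 tested probe sets, and with probe sets fitted one by one only 1 of the 2 was called higher. The other was not called and gave 1.51 for P4ha1, 0.82 for Egln1, 0.95 for Vegfa and 1.5 for Mxi1. None of the 15 members of glucose uptake, glycolysis and lactate was called, and 4 of them had an unadjusted p under 0.05 (2 higher, 2 lower). The median over the 29 members was 0.19, and 0.00 over all genes.

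The 4 calls between ploidies were not made without haploid EpiSC-1. Without that line none of the 29 members was higher and 4 were lower, namely Aldoc, Ankrd37, Ddit4 and Ndrg1 at -1.65, -1.28, -1.18 and -0.99. Of all 11105 genes, 717 were then higher and 695 (6.26%) lower. Without haploid EpiSC-2, 13 members were higher and none lower, where 1507 of all 11105 genes were higher and 1327 (11.9%) lower. With arrays centred on their medians 1 member was higher, and with line means as the units none was. Over all settings the highest adjusted p was 0.15 for P4ha1, 0.18 for Egln1, 0.281 for Vegfa and 0.483 for Mxi1. With 2 lines of each ploidy, p-values between ploidies are approximate. Of 18 tested fibroblast feeder markers, 13 (72.2%, against 9.69% of all genes) were higher in haploid cells, with a median of 3.15. Of the 20 listed, 8 reached the filter in diploid EpiSC-1 and 14 in diploid EpiSC-2. Some thus passed the filter through the haploid arrays alone, so this count and median are no support. The summed epiblast signals given above also divided by ploidy, and the part of either marker list in these differences was not tested. The actin 3′ to 5′ ratio was 1.46 to 1.68 on diploid and 1.34 to 1.42 on haploid arrays.

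**Figure D4:**
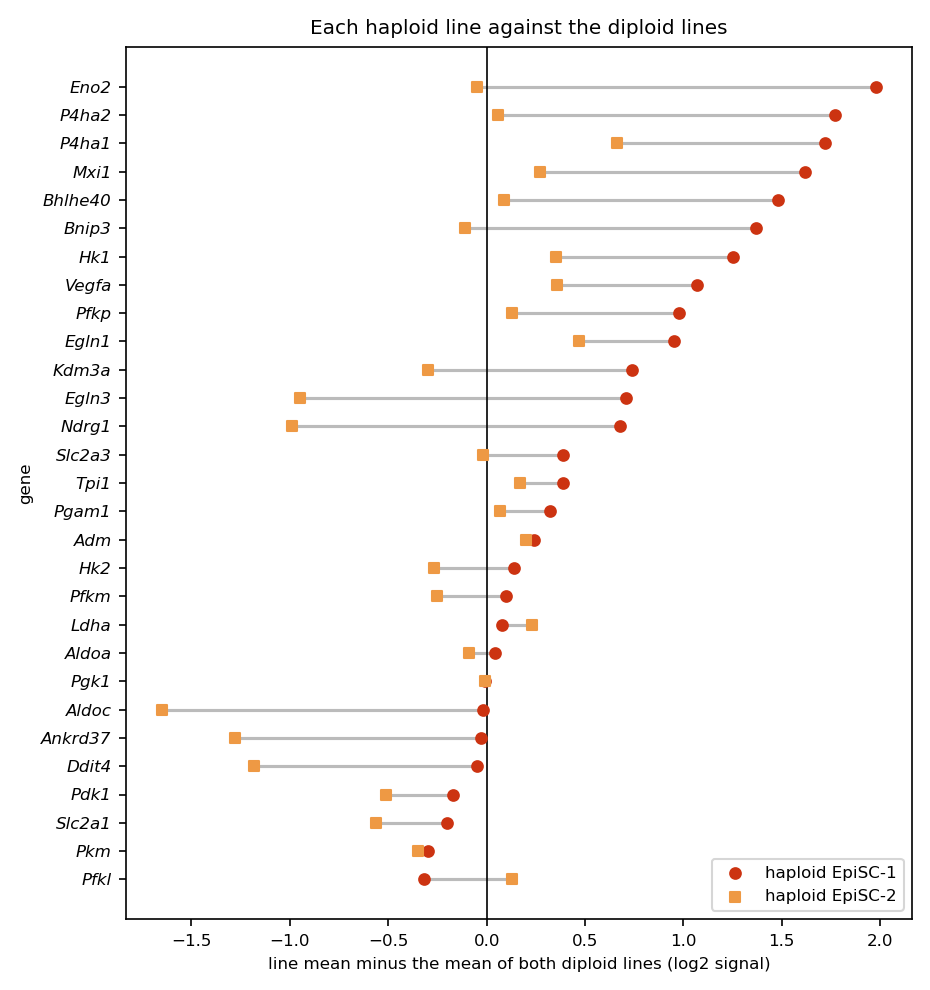
Mean log2 signal of haploid EpiSC-1 (circles) and haploid EpiSC-2 (squares) minus the mean of both diploid lines, for each of the 29 tested members, with 3 arrays per line. Circles lie above 0 for 21 members and squares for 13, with medians of 0.39 and -0.02.

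Set against the mean of both diploid lines, haploid EpiSC-1 was above for 21 of 29 members (median 0.39) and haploid EpiSC-2 for 13 (median -0.02). All tested genes had medians of 0.03 and 0.00. These contrasts share the diploid arrays and are given side by side. The signs were opposite for 10 of 29 members and for 2675 of all 11105 genes. For the 14 members outside glycolysis the medians were 0.85 and -0.02, and for the 15 of glucose uptake, glycolysis and lactate they were 0.10 and -0.02.

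The diploid lines also differed from each other, with no common direction. In diploid EpiSC-2, 11 members were higher and 8 lower than in diploid EpiSC-1, where 26.4% of all genes were higher and 29.4% lower, and the members' median was 0.04. The differences of 2-fold or more were those of Bhlhe40, Slc2a1 and Pfkl given above, 3 members where 6.78% of all genes passed that size. Of the 14 members outside glycolysis 7 were higher, 2 lower and 5 not called. Among the higher were Egln3, Ddit4 (0.52 ± 0.07, adjusted p = 9.92e-06) and Ndrg1 (0.76 ± 0.05, adjusted p = 1.75e-08), though the mean of its probe sets gave 0.09 for Ndrg1 (adjusted p = 0.417). Hk2 was higher by 0.75 ± 0.04 (adjusted p = 1.78e-09), while Aldoc (-0.72 ± 0.06, adjusted p = 1.46e-07) and Pfkm (-0.68 ± 0.06, adjusted p = 4.19e-07) were lower. With the mean of its probe sets Aldoc was no longer called (-0.68, adjusted p = 0.163).

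Genes of HIF itself and of its control were lower in haploid EpiSC-2 about as often as all genes. Of 15 tested subunits and sensors, 5 (33.3%, against 31% of all genes) were lower and 1 (6.67%, against 25.7%) was higher, with a median of -0.08. Hif1a, Epas1, Vhl and Arnt were 4 of the 5. Hif1a, the main alpha subunit, had means of 7265.7, 7275.9, 8701.8 and 8204.1 in the order of lines above and differed by -0.08 ± 0.03 between the haploid lines (adjusted p = 0.0365) and 0.22 ± 0.09 between ploidies (adjusted p = 0.124). Epas1, the second alpha subunit, had 155.3, 175.9, 282.7 and 122.1 (-1.22 ± 0.21, adjusted p = 0.000159). Vhl, the ubiquitin ligase subunit that removes the alpha subunits, had 399.1, 470.4, 750.8 and 489.7 (-0.62 ± 0.09, adjusted p = 2.78e-05). Between ploidies 1 of the 15 was lower (6.67%, against 7.54% of all genes) and 0 were higher (against 9.69%). The sole call was Arnt, which fell by 2.0 ± 0.23 (adjusted p = 2.09e-05) on the probe set that stood for it. Between the haploid lines that probe set differed by -0.68 ± 0.07 (adjusted p = 2.46e-06). Another Arnt probe set had means of 953.1, 654.3, 766.0 and 644.0 with overlapping arrays of the ploidies and a haploid difference of -0.25, so the size depends on the probe set.

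Other HIF targets outside the list were more often lower than higher in haploid EpiSC-2. Of 30 tested, 16 (53.3%, against 31% of all genes) were lower and 4 (13.3%, against 25.7%) higher, with a median of -0.41. Ccng2, a cyclin of quiescent cells, was lower by -1.77 ± 0.06 (adjusted p = 1.1e-11), with means of 1266.9, 1427.5, 2581.7 and 758.8. Ero1a, an oxidase of protein folding, was lower by -1.21 ± 0.04 (adjusted p = 2.15e-11), with 2782.6, 3970.5, 5098.0 and 2196.5. Between ploidies 4 of the 30 were higher (13.3%, against 9.69% of all genes) and 1 lower (3.33%, against 7.54%). Plin2, a lipid droplet coat protein gene, was higher in haploid cells by 3.01 ± 0.60 (adjusted p = 0.00256), although its diploid means were 1435.6 and 154.5. Lox, a collagen cross-linking enzyme gene, had diploid means of 19.9 and 12.7, under the filter value, and haploid means of 259.9 and 378.4. It passed the filter through the haploid arrays alone, so its call is no support and no fold is given. Rbpj, the Notch pathway factor, was higher by 0.66 ± 0.19 (adjusted p = 0.0233), and Kdm4c, a histone demethylase, was lower (-0.96 ± 0.19, adjusted p = 0.0024).

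Neighbouring pathways of glucose use were set against the same shares of all genes, 25.7% higher and 31% lower between the haploid lines. Of 15 other isozymes and hexose-handling genes, 10 (66.7%) were lower and 2 (13.3%) higher in haploid EpiSC-2 (median -0.34). The lowest p-values were those of Pgm1, a phosphoglucomutase (-1.13 ± 0.08, adjusted p = 3.44e-08), and Gpd2, the mitochondrial glycerol phosphate dehydrogenase (-0.41 ± 0.04, adjusted p = 1.86e-06). Between ploidies 3 (20%) were higher and 2 (13.3%) lower, against 9.69% and 7.54% of all genes. These were Ugp2, Galm and Gpd2 at 0.84, 1.30 and 0.70, Ldhb at -0.56 and Tigar at -1.78, and the other tested probe sets of Tigar gave 0.37 and -0.47. Of 11 genes for pyruvate entry into mitochondria, 5 (45.5%) were higher and 1 (9.09%) lower in haploid EpiSC-2 (median 0.07). The lower one, named after its value was seen, was Pdk4, a pyruvate dehydrogenase kinase gene, with means of 43.1, 72.5, 155.3 and 50.7. Those of diploid EpiSC-1 and haploid EpiSC-2 were under the filter value. Pdk4 passed the filter only with the haploid EpiSC-1 arrays included, so its call is no support and no fold is given. The pyruvate dehydrogenase subunit genes Pdhb and Pdha1 were among the higher (0.29 ± 0.04 and 0.31 ± 0.05, adjusted p = 3.06e-05 and 0.000184). Between ploidies 2 of the 11 were higher (18.2%, against 9.69% of all genes) and 1 lower (9.09%, against 7.54%). Mpc1, a pyruvate carrier gene, and Pdk3 were higher (1.39 and 0.70) and Pdhb was lower (-0.46). Of 7 pentose phosphate genes, 4 (57.1%) were higher and 2 (28.6%) lower in haploid EpiSC-2, with Taldo1 at -0.63 ± 0.04 (adjusted p = 5.31e-09) and Pgd at 0.47 ± 0.06 (adjusted p = 6.78e-06). Pgd was the sole call of that list between ploidies (-0.50 ± 0.17, adjusted p = 0.0496), 1 of 7 (14.3% lower, against 7.54% of all genes).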

How the data were processed

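The deposited table held MAS5 signal intensity values per probe set on a linear scale, made by the authors, per the submitters' processing notes. Which version was used is not stated in the sources used here. With 2% of probe sets trimmed from each tail, every array had a mean of 500.0. Log2 of the signal was taken without a pseudocount. The fits did not include 64 control probe sets, 932 annotated with several genes and 9160 annotated with no gene. Each gene was represented by its brightest probe set (mean log2 signal over all arrays). Genes with a mean log2 signal of at least 5.97, the median of all probe sets (a signal of 62.6), were tested. Signals near that value have uncertain folds, and precision is limited by the number of arrays.

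Tests were made with limma 3.58.1 in R 4.3.3, two-sided, with an intensity trend and Benjamini-Hochberg adjustment over 11105 genes at 0.05. Ploidies were compared with line as a random block (duplicateCorrelation, statmod 1.5.0, correlation 0.806). Lines of a ploidy were compared in a fit of 4 group means. Each fit was tested on simulated data with independent noise for each gene, and the outcome is not given here. The members, pathway lists and marker lists were chosen with earlier results of these data known, so no list gives independent support. Members called between ploidies without overlap of arrays, and members called between lines at 2-fold or more, are given array by array, and others by line means. Of each pathway list, up to 4 genes with the lowest p between ploidies and up to 2 between the haploid lines were named, with Hif1a, Epas1, Arnt and Vhl always. Alternatives were another scaling, pseudocount, filter, choice of probe set, trend, block, line means, and leaving out each array or line. Promoter sequences and chromosomes were from RefSeq tables of GRCm38.p6. No detection calls or scan dates were used.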

Additional observations from a re-analysis of the deposited data

Results flagged for a closer look

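For 3 members the signal moved in opposite directions from the diploid arrays in the haploid lines, with every haploid EpiSC-1 array above and every haploid EpiSC-2 array below all 6 diploid arrays. Haploid EpiSC-2 minus haploid EpiSC-1 was -1.66 on the log2 scale for Egln3, -1.67 for Ndrg1 and -1.04 for Kdm3a. Groups were compared array by array here, and the difference in direction was not tested beyond the limma comparison of the haploid lines. The share of all genes that met the same rule is not given here, so the count is not read as particular to the members.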

How the results depend on the processing

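Between the haploid lines 19 of 25 member calls held in every setting, the exceptions being Pfkl, Aldoc, Tpi1, Pgam1, Ldha and Pdk1. Between the diploid lines 12 of 19 held, and between ploidies 0 of 4. In the ploidy comparison 1913 genes were called. The count was 3290 with no filter, 980 with the stricter filter, 325 with line means as units and 3157 probe sets when probe sets were fitted one by one. Fitted so, 9827 probe sets were called between the haploid and 10574 between the diploid lines, since 19837 probe sets were tested. Members higher in haploid cells numbered 1 with arrays centred on their medians, 1 with the stricter filter, 2 with the replicate block, 0 with line means, 2 without diploid EpiSC-1, 0 without haploid EpiSC-1 and 13 without haploid EpiSC-2. Members lower numbered 1 with no filter, 1 with the mean of all probe sets, 1 without diploid EpiSC-1, 1 without diploid EpiSC-2 and 4 without haploid EpiSC-1. Members higher in haploid EpiSC-2 numbered 1 with quantile normalization, the mean of probe sets or no trend. The cause was not tested. Among members called with the reported settings or the alternative, directions turned for Ndrg1 between ploidies without haploid EpiSC-2 (0.68), for Pgk1 under quantile normalization (-0.08 between the haploid and -0.16 between the diploid lines), and with the mean of probe sets for Pdk1 (0.01 and -0.17), Pfkp (-0.36) and Tpi1 (0.07) in the last comparison.

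Centring arrays moved the median of all genes by -0.12 between ploidies and by 0.16 between the haploid lines, and the share of calls that were higher from 56.2% to 42.8% and from 45.3% to 65.5%. Then 3 of the 29 members were higher and 21 lower in haploid EpiSC-2. Of all 11105 genes, 4184 were higher and 2207 (19.9%) lower in that setting. Leaving out each replicate gave 1728 to 1811 genes and 3 to 4 members higher between ploidies, 1 to 2 members higher and 22 to 24 lower between the haploid lines, and 9 to 12 higher and 6 to 9 lower between the diploid lines. Same-numbered arrays of different lines had correlations of deviations from -0.0466 to 0.0765 over 18 pairs. Their median was 0.00734, against -0.0045 for arrays of other numbers, and 7 of 12 arrays correlated best with their own number. Whether the numbers pair the samples cannot be told from these values. With the replicate block 1651 genes were called between ploidies. Then 24 members were lower in haploid EpiSC-2, where 30.9% of all genes were. In diploid EpiSC-2, 11 members were higher and 7 lower, where 2932 and 3270 of all 11105 genes were.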
